A study of Mus musculus with 2 samples.

Results

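Scavenger receptors are surface proteins with which macrophages and some endothelial cells bind and take up spent proteins, lipids, dead cells and matrix fragments, mostly for breakdown in lysosomes. Tissue-resident macrophages are known for carrying several of them at once, and lymphatic endothelium shares some with macrophages. Their genes are widely used to mark macrophage states in tumours. Described here are the 9 receptor genes Cd163, Stab1, Mrc1, Marco, Msr1, Lyve1, Timd4, Folr2 and Clec4f, taken by symbol from 31054 measured features, all 9 present in both count tables. The rule names the genes and uses no measured value, but the genes were chosen with earlier results of these data known. Their RNA is given as CPM, which are counts of unique molecular identifiers (UMIs, one per captured RNA molecule) of a cell group scaled to a total of 1000000, and as the share of cells holding at least 1 UMI.

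The cells came from allografted pancreatic ductal adenocarcinomas in mice of the genotype p16-CreERT2/R26-LSL-tdTomato, in which a drug-inducible Cre from the p16 locus switches on the red reporter tdTomato in a cell and its descendants. Stromal cells of PBS-perfused animals were sorted into a Tom positive and a Tom negative fraction, and 1 single-cell library was made from each. Both fractions carry the same alleles and were separated by the sort, and each was captured as a library of its own. The sources used here state no age, number of pooled animals or schedule of Cre induction, and the reporter reads past p16 promoter activity rather than present p16 RNA. With 1 library per fraction there was no replicate and no test between fractions. Every interval below is an exact 95% interval that covers counting error only, and PCR, animal and sorting error come on top.

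Filters kept 4302 cells of the Tom positive and 6580 of the Tom negative library, with medians of 24191 and 20610.5 UMIs per cell. The reporter RNA itself stood at 547 CPM in Tom positive cells against 29.7 CPM in Tom negative ones, and Cdkn2a, the p16 gene, at 24.2 and 19.0 CPM. The libraries shared 3660 barcodes, and 234 Tom positive and 1233 Tom negative kept cells were doubted because the other library held the same barcode with over 5 times the UMIs, or both held it with under 5000. Of these doubted cells, 4 and 25 were among the 1411 and 1950 cells of 7 clusters in which macrophage markers scored highest, called macrophage-scored below. In macrophage-scored cells tdTomato was at 1070 and 45.3 CPM and Cdkn2a at 50.8 and 23.9 CPM. Clusters were formed with the 9 receptors and tdTomato left out. Of the 7, 2 clusters were named by macrophage marker score and are called macrophage-like. They held 405 Tom positive and 411 Tom negative cells, with C1qa at 3097 and 2548 CPM and Cdkn2a at 20.5 and 15.6 CPM. The larger, led by Cbr2 and Ms4a7, held 350 and 296 cells at a median of 15183.5 UMIs. The smaller was led by cell division genes such as Kif15 and Top2a. It held 55 and 115 cells at a median of 40645.5 UMIs, so the share of cycling cells differed between the libraries. The remaining 5 clusters were led by monocyte or dendritic genes, had low depth or had a T or NK marker among their leading genes, and stayed unnamed.

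Each receptor has its own ligands. CD163 takes up haemoglobin bound to haptoglobin, and its gene lies on the plus strand of chromosome 6 at 124304656 to 124330527 (mm10, GENCODE M21). STAB1, or stabilin-1, clears modified lipoproteins and matrix fragments, and Stab1 lies on the minus strand of chromosome 14 at 31139013 to 31168641, overlapping Nt5dc2 on the other strand. MRC1, the mannose receptor, binds mannose-rich glycoproteins and collagen fragments, and Mrc1 lies on the plus strand of chromosome 2 at 14229392 to 14332057. MARCO and MSR1 are class A scavenger receptors for modified lipoproteins and bacteria, on chromosome 1 at 120474538 to 120505024 and chromosome 8 at 39581685 to 39642673, both on the minus strand. LYVE1 binds hyaluronan on lymphatic vessels and on some resident macrophages, and Lyve1 lies on the minus strand of chromosome 7 at 110850607 to 110863239. FOLR2, the beta folate receptor, lies on the same chromosome and strand at 101839988 to 101857194, where 2 predicted genes overlap it on the other strand. TIMD4, which binds phosphatidylserine on dying cells, lies on the plus strand of chromosome 11 at 46810800 to 46844332, and CLEC4F, a lectin of mouse liver macrophages, on the minus strand of chromosome 6 at 83644542 to 83656187. On the same strand, Mir511 overlaps Mrc1. The sources used here do not state whether counting used strand, and reads in these overlaps were not checked.

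Promoters are shown for 4 receptors whose RNA was highest in the same macrophage-scored cells (Cd163, Mrc1, Folr2) or was shared by macrophages and lymphatic endothelium (Stab1). Each window runs from 250 bases before to 50 after the RefSeq start (GRCm38.p6), 5′ to 3′ on the gene's strand. RefSeq windows were matched for 7 of the 9 receptors, as 8 windows, 2 of them for Folr2. The Folr2 window shown lies inside the annotated gene, and the other, at 101857141 to 101857440 by its annotated 5′ end, is not shown. Capitals mark GAGGAA, the core of sites bound by PU.1, and TGCTGA, a site core of MAF factors, each also as its reverse complement (TTCCTC and TCAGCA). PU.1 and MAF are the textbook regulators of macrophage genes. No matches overlapped.
Cd163, chr6:124304401-124304700, plus strand: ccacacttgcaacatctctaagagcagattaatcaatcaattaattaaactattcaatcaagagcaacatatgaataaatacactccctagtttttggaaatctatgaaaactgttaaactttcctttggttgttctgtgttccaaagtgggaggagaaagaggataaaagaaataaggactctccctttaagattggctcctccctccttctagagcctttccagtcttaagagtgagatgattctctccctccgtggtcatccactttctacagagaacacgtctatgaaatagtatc
Stab1, chr14:31168592-31168891, minus strand: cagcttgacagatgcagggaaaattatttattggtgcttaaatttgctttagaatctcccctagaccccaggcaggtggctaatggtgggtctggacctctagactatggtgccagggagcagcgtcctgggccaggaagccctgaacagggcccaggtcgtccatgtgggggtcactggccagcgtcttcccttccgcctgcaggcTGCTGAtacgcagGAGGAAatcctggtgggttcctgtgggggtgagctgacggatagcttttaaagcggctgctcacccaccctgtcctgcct
Mrc1, chr2:14229164-14229463, plus strand: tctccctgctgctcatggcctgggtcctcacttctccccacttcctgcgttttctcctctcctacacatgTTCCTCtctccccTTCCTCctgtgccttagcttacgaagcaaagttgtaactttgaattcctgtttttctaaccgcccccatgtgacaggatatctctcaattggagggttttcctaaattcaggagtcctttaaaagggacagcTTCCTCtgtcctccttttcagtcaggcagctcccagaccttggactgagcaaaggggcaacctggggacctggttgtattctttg
Folr2, chr7:101845282-101845581, minus strand: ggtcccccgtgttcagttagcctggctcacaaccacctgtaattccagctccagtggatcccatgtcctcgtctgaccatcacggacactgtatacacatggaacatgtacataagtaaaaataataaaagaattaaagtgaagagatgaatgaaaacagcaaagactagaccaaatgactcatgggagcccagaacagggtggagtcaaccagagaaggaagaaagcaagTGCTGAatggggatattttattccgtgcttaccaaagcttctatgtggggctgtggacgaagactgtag
The Mrc1 window held GAGGAA 3 times, the Stab1 window held each motif 1 time, the Folr2 window held TGCTGA 1 time, as did its other window, and the Cd163 window held neither. Among 32851 RefSeq promoter windows of 300 bases, 28.3% held GAGGAA and 19.5% held TGCTGA. A match is a run of letters and not a measured site, and its absence says only that these letters are not in this window.

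The receptors fell into a macrophage group and a pair shared with lymphatic endothelium. Over both libraries, Cd163, Mrc1, Msr1 and Folr2 were each highest in 1 macrophage-like cluster led by Cbr2 and Ms4a7, at 99.5, 3757, 505 and 192 CPM. Stab1 at 824 CPM and Lyve1 at 1529 CPM were highest in the lymphatic endothelial-like cluster, led by Mmrn1, Reln and Prox1. Marco peaked in the same macrophage-like cluster at 4.78 CPM and Timd4 in a Ccl17 and Ccr7 cluster at 6.46 CPM. Clec4f gave a single UMI in all kept cells, in a Tom negative fibroblast-like cell.

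**Figure D1:**
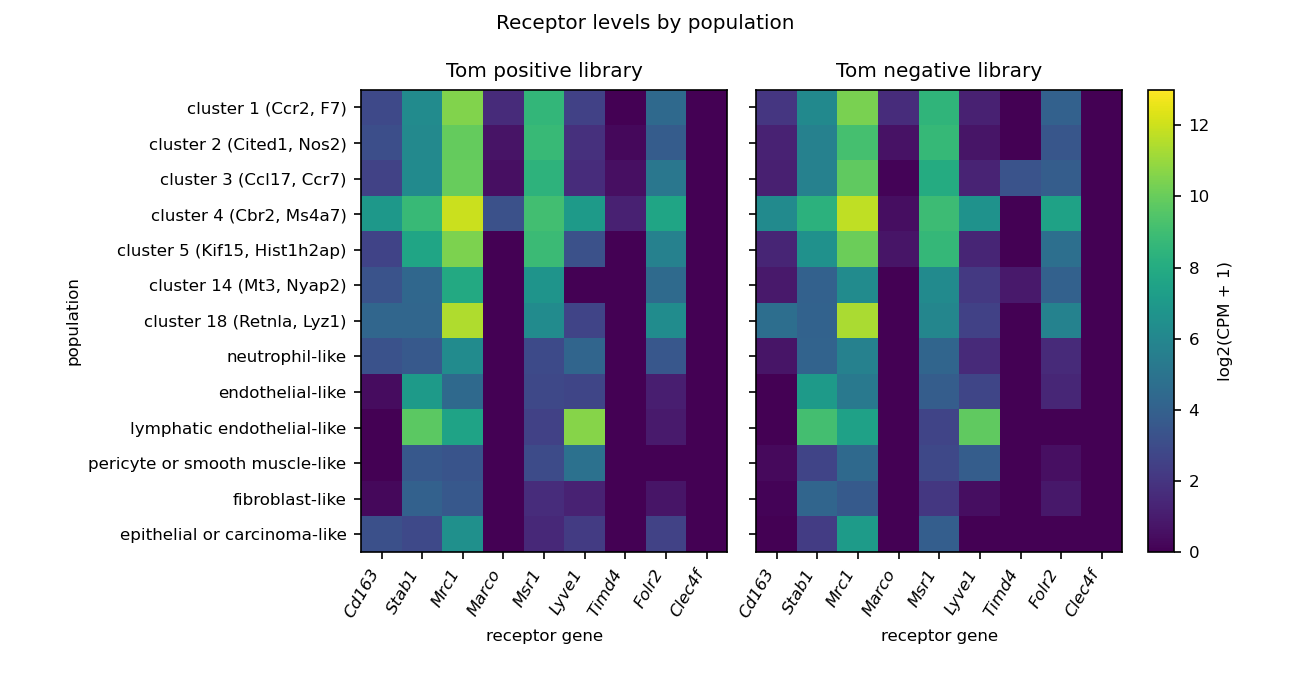
Levels of the 9 receptors, as log2 of CPM plus 1, in 7 macrophage-scored clusters and 6 other classes of cells of the Tom positive and the Tom negative library. Mrc1 and Msr1 are high across macrophage-scored clusters, Cd163, Folr2 and Lyve1 mainly in 1 of them, and Stab1 and Lyve1 are highest in lymphatic endothelial-like cells.

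The gap between the highest and the next cluster separated narrow from broad receptors. The second-highest cluster reached 23.3 CPM for Cd163 and 61.5 CPM for Folr2, far below the peak, but 2672 CPM for Mrc1 and 421 CPM for Msr1. Stab1 stood at 379 CPM in its second cluster and Lyve1 at 118 CPM. Within macrophage-like cells Mrc1 was held by 98.8% of Tom positive against 97.3% of Tom negative cells, and Msr1 by 89.4% and 91.5%. Cd163 was found in 22.5% and 18.0% and Lyve1 in 22.2% and 11.9%. Mrc1 and Msr1 were thus near-general macrophage RNAs in these tumours, while Cd163 and Lyve1 marked a minority. Fibroblast-like cells, which should lack both, held a Cd163 UMI in 0.359% and 0.303% and a Lyve1 UMI in 4.31% and 1.26% of cells at medians of 40425 and 38482 UMIs. The macrophage-like medians were lower, at 16453 and 18343 UMIs. After thinning each cell to 2000 UMIs, Cd163 was in 12.0% of 391 Tom positive against 8.06% of 397 Tom negative macrophage-like cells and in no fibroblast-like cell of either library.

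Clustering the macrophage-scored cells again gave 18 subsets, a step added after the data were seen. The 3 subsets with most scavenger receptor RNA were led by Cd209f and Cbr2 (85 Tom positive and 84 Tom negative cells), by Vcam1 and Ccl8 (116 and 83 cells) and by Ms4a4a and Ms4a7 (158 and 165 cells). Cd209f encodes a C-type lectin and Cbr2 a carbonyl reductase, both known from resident macrophages. Cd209g ranked between them, and Cd209f was held by 20 Tom positive cells and 1 Tom negative cell of this subset. In the Cd209f, Cbr2 subset Cd163 stood at 528 CPM in Tom positive against 236 CPM in Tom negative cells, and Lyve1 at 718 and 423 CPM. In the Vcam1, Ccl8 subset Cd163 was at 93.8 and 44.1 CPM and Lyve1 at 37.5 and 32.0 CPM, and in the Ms4a4a, Ms4a7 subset Cd163 was at 13.7 and 16.7 CPM and Lyve1 at 6.21 and 2.18 CPM. The order of these 3 subsets for Cd163 and Lyve1 was the same in both libraries. In the Vcam1, Ccl8 subset 1 Tom negative cell gave 27 of the 48 Lyve1 UMIs, and the level was 14.3 CPM without it. In the Ms4a4a, Ms4a7 subset 1 Tom positive cell gave 23 of the 42 Cd163 UMIs, and the level was 6.24 CPM without it, against 16.7 CPM in Tom negative cells.

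The other receptors had other orders. Folr2 followed Cd163, at 488 and 354 CPM in the Cd209f, Cbr2 subset, 242 and 170 CPM in the Vcam1, Ccl8 subset and 63.1 and 80.9 CPM in the Ms4a4a, Ms4a7 subset. Stab1 was highest in the Vcam1, Ccl8 subset, at 600 and 449 CPM, above 383 and 210 CPM in the Cd209f, Cbr2 subset. Mrc1 was highest in the Cd209f, Cbr2 subset, at 5985 and 4738 CPM, where Msr1 was low, at 265 and 230 CPM. Msr1 was instead highest in a subset led by Sema3c and Cxcl5, at 612 and 637 CPM, in which Lyve1 was at 1.13 and 0 CPM. A subset led by Cited1 and Serpinb2 held 0.549 and 0.369 CPM of Cd163 and 250 and 198 CPM of Mrc1, but 308 and 380 CPM of Msr1. Msr1 thus ranked the subsets in another order than Cd163, Lyve1 and Folr2.

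**Figure D2:**
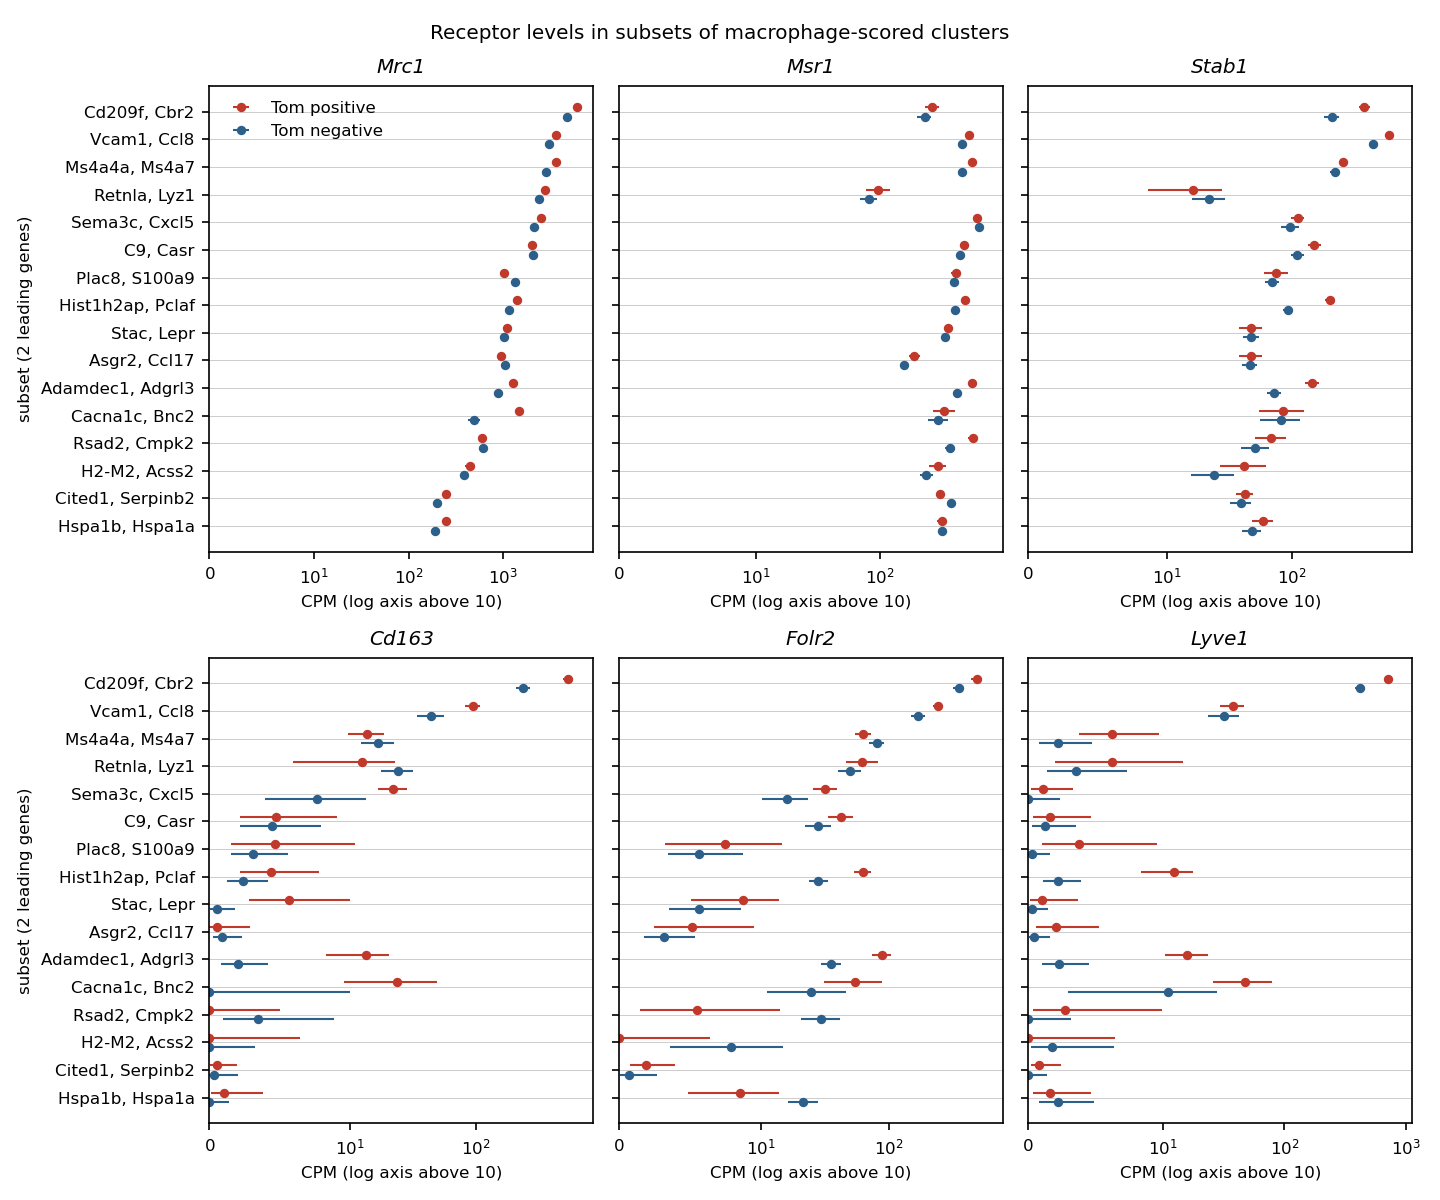
CPM of 6 receptors with exact 95% Poisson intervals in the 16 macrophage-scored subsets with at least 20 cells in each library, on an axis that is logarithmic above 10 CPM. Cd163, Lyve1 and Folr2 peak in the Cd209f, Cbr2 subset in both libraries, Stab1 peaks in the Vcam1, Ccl8 subset, and Msr1 varies least, from 81.7 to 637 CPM over the 16 subsets.

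Single cells held these receptors together. Among macrophage-scored cells with at least 2 Lyve1 UMIs, 88.0% of 75 Tom positive against 89.2% of 37 Tom negative cells also held at least 2 Folr2 UMIs, compared with 18.9% and 12.9% of all macrophage-scored cells. Of the same Lyve1 cells 46.7% and 45.9% held at least 2 Cd163 UMIs, against 5.88% and 3.18% of all. The Cd209f, Cbr2 subset held 65.3% and 64.9% of the Lyve1 cells. As a share of the Lyve1 cells, the overlap with Folr2 and Cd163 was thus close in the libraries. In the other direction 42.2% of 83 Tom positive against 27.4% of 62 Tom negative Cd163 cells held Lyve1, and 24.8% of 266 Tom positive against 13.1% of 251 Tom negative Folr2 cells held Lyve1, so most Folr2 cells lacked detected Lyve1.

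The RNA of the narrow receptors lay in few cells. In macrophage-like cells 50% of all Cd163 UMIs came from the 10 richest Tom positive and the 13 richest Tom negative cells, and 50% of all Lyve1 UMIs from 12 and 6 cells. For Folr2 it took 40 and 39 cells, for Stab1 60 and 59, for Msr1 68 and 74 and for Mrc1 94 and 95. Counting intervals treat UMIs as independent, so for Cd163 and Lyve1 they are narrower than the error from sampling so few cells.

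Between the sorted fractions, the question was whether macrophages with a p16 reporter history carried more or less of each receptor. A receptor was called higher or lower where 1 group reached 10 CPM and the levels differed at least 1.5-fold. In macrophage-like cells 4 of the 6 receptors at 10 CPM or more were called higher in the Tom positive library and 0 lower, where 2.27% of all 8412 measured genes were called higher and 3.41% lower. Cd163 stood at 90.3 CPM in Tom positive against 38.7 CPM in Tom negative cells, a ratio of 2.33 (2.05 to 2.65). Lyve1 was at 101 and 52.4 CPM (ratio 1.93, 1.72 to 2.16). Stab1 was at 367 and 212 CPM (ratio 1.73, 1.63 to 1.83). For all 3 the higher value was the Tom positive one, with count intervals that did not overlap. Folr2 was at 161 and 107 CPM (ratio 1.51, 1.39 to 1.64) that lay at the threshold. Mrc1, at 3288 and 2337 CPM (ratio 1.41, 1.38 to 1.43), and Msr1, at 511 and 438 CPM (1.17, 1.12 to 1.22), were not called. The calls of Lyve1 and Folr2 were lost when the 2 macrophage-like clusters were weighted equally, and those of Cd163 and Folr2 at a mitochondrial limit of 5%, while Stab1 stayed called in both.

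Leaving out the single cell richest in a receptor changed the Cd163 ratio to 2.07, the Lyve1 ratio to 1.67, the Stab1 ratio to 1.70 and the Folr2 ratio to 1.47, which ended the Folr2 call. Shares of cells moved less than levels for Cd163, at 22.5% (18.5 to 26.9) and 18.0% (14.4 to 22.1), with overlapping intervals. For Lyve1 they stood at 22.2% (18.3 to 26.6) and 11.9% (8.95 to 15.5), whose intervals did not overlap. Stab1 was in 86.9% and 76.6% of cells and Folr2 in 59.3% and 49.4%. Over all macrophage-scored cells the same 4 receptors were called higher, with ratios of 2.79 for Cd163, 2.45 for Lyve1, 1.75 for Folr2 and 1.74 for Stab1, where 1.10% of measured genes were called higher and 1.26% lower. The mix of subsets differs between these pools. With the 16 subsets described below weighted equally, the mean log2 difference was 0.95 for Lyve1 and 0.72 for Cd163, against 1.23 and 1.40 in the pool. It was 0.35 for Stab1 and 0.10 for Folr2, against 0.79 for both in the pool, and so below 1.5-fold. These means include subsets in which a receptor was under 10 CPM. Lyve1 reached 10 CPM in 5 of the 16, with log2 differences from 0.22 to 2.35. Cd163 reached it in 7, with differences from -0.89 to 4.63.

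Subset by subset, Stab1 was higher in Tom positive cells in 15 of 16 subsets and called in 4. It was at 203 and 94.3 CPM in the cycling subset led by Hist1h2ap and Pclaf, with a ratio of 2.15 (1.90 to 2.45), and at 146 and 72.1 CPM in a subset led by Adamdec1 and Adgrl3. Msr1 was higher in 14 of 16 subsets and Mrc1 in 12 of 16, with 1 call each. Cd163 reached 10 CPM in 7 subsets and was called higher in 5 and lower in 1, and Lyve1 reached it in 5 subsets, was higher in all 5 and called in 4. Folr2 reached 10 CPM in 11 subsets, with 5 called higher and 2 lower. Over gene and subset pairs of these 16 subsets 8.28% were called higher and 8.03% lower. The share of genes called higher ran from 3.05% in the Ms4a4a, Ms4a7 subset to 23.8% in the low-depth subset led by Cacna1c and Bnc2, and a call in a subset with a high background is not read as a result. Single cells carried many of these values. In the Tom positive library 1 cell gave 21 of 25 Lyve1 UMIs in the Adamdec1, Adgrl3 subset, 13 of 14 in the Cacna1c, Bnc2 subset and 14 of 31 in the cycling subset. Without the richest cell of each subset Lyve1 reached 10 CPM in 3 subsets, with 1 called higher and 1 lower, and Cd163 in 5, with 3 higher and 1 lower. Stab1 was then higher in 12 of 16 subsets, with 3 called higher and 2 lower, and Folr2 was called higher in 3 and lower in 2 of 11. The direction within subsets thus rested partly on single cells for all 4 receptors.

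A small set of cells that hold Cd209f, a split chosen after its values were seen, was rich in Cd163, Lyve1 and Folr2. Some leading genes of the Cd209f, Cbr2 subset were themselves unequal between libraries, so its size is not compared. In its Tom positive and Tom negative cells Cd209f was at 321 and 2.93 CPM, but Cbr2 at 298 and 331 CPM. Of the macrophage-scored cells, 26 of 1411 Tom positive cells held a Cd209f UMI (1.84%, 1.21 to 2.69) and 4 of 1950 Tom negative cells (0.205%, 0.0559 to 0.524). Within the subset 20 Tom positive cells and 1 Tom negative cell did. Of the 20, 18 were reporter-high (at least 500 CPM of tdTomato), 0 were doubted, and the median depth was 12030.5 UMIs.

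These 20 cells were rich in the narrow receptors. Cd163 stood at 1181 CPM (1058 to 1315) in them, at 257 CPM (220 to 298) in the other 65 Tom positive cells of the subset and at 228 CPM (199 to 260) in 83 Tom negative cells without Cd209f. Lyve1 stood at 1284, 483 and 373 CPM and Folr2 at 746, 380 and 342 CPM in the same 3 groups. The Cd163 level without Cd209f was thus alike in both libraries, with overlapping intervals. A Cd163 UMI was found in 90.0% of the 20 cells and in 44.6% of each of the other groups, and all 20 held Lyve1 and Folr2. Stab1 was at 584, 300 and 211 CPM and Mrc1 at 6632, 5717 and 4646 CPM. Msr1 was not raised, at 244, 273 and 232 CPM. The 20 cells also held 6890 CPM of the chemokine gene Ccl8 and 354 CPM of the complement receptor gene Vsig4, against 132 and 60.2 CPM in the 65 other Tom positive cells. With medians of 8898 UMIs in the 65 and 11858 UMIs in the 83 cells, a missing Cd209f UMI does not show that a cell lacked the RNA.

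Without the cells holding Cd209f, the library ratios in macrophage-like cells fell to 1.38 for Cd163 (1.19 to 1.60), 1.32 for Lyve1 and 1.35 for Folr2 (1.23 to 1.47), none of them called. Stab1 was at a ratio of 1.68 (1.59 to 1.78), the only call of 6 receptors, where 1.71% of measured genes were called higher and 3.19% lower. Within the Cd209f, Cbr2 subset 3 of 6 receptors were called higher with these cells, where 14.4% of genes were, and 0 without them, where 13.7% were. Its ratios fell from 2.24 to 1.13 (0.920 to 1.38) for Cd163 and from 1.70 to 1.30 for Lyve1, which stood at 1.46 without its richest cell alone. The subset itself is redrawn by other filters and clusterings, and under 5 of them its Lyve1 log2 difference turned from 0.76 to between -0.28 and -0.37. Over all macrophage-scored cells the 4 receptors stayed called, at 1.79 for Cd163, 1.69 for Stab1, 1.66 for Lyve1 and 1.58 for Folr2, where 0.943% of genes were called higher and 1.33% lower. In the subset Stab1 went from 1.83 to 1.42. Cd209f was picked for its difference between the libraries, and leaving its cells out removed 21 Tom positive but 2 Tom negative macrophage-like cells. A fall of the ratios was thus fixed by the split, and these values describe it without locating the excess.

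**Figure D3:**
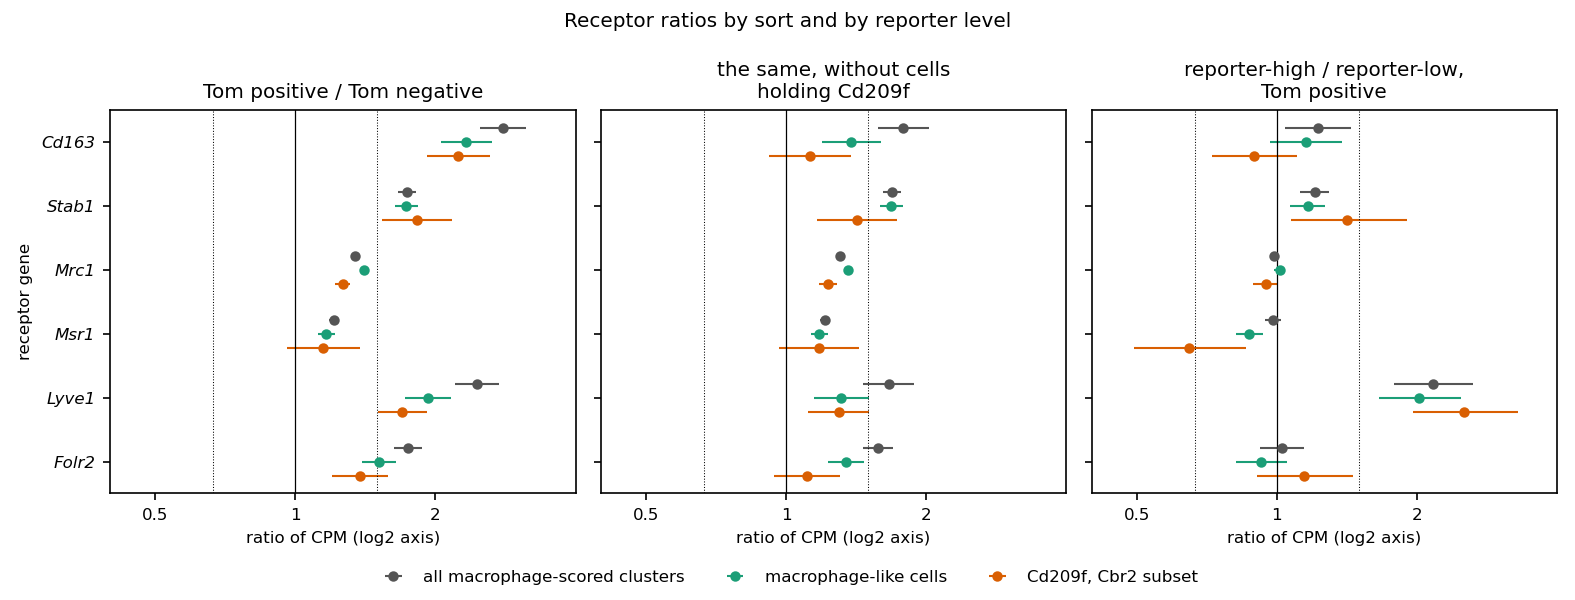
Ratios of CPM with exact 95% conditional intervals on a log axis for 6 receptors in 3 populations, in panels for Tom positive over Tom negative, the same without cells holding Cd209f, and reporter-high over reporter-low cells. Dotted lines mark 1.5-fold, and the Cd163 ratio of macrophage-like cells moves from 2.33 to 1.38 between the first 2 panels.

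Within the Tom positive library, cells with at least 500 CPM of tdTomato were set against cells with less. This comparison holds library, capture and sort constant. In macrophage-like cells (296 reporter-high, 109 reporter-low) Lyve1 was the only receptor called, 1 of 6 higher and 0 lower, where 3.63% of measured genes were called higher and 2.73% lower. Lyve1 stood at 115 CPM in reporter-high and 57.0 CPM in reporter-low cells, a ratio of 2.02 (1.66 to 2.48). It fell to 1.71 (1.40 to 2.11) without the richest cell, and to 1.42 (1.12 to 1.81), below the call, without the cells holding Cd209f, where 3.59% of genes were called higher and 3.02% lower. Cd163 was at 93.3 and 81.0 CPM (ratio 1.15, 0.967 to 1.38) and Stab1 at 380 and 326 CPM (1.16, 1.07 to 1.27). Folr2 was at 158 and 171 CPM (0.925), Mrc1 at 3300 and 3252 CPM (1.01) and Msr1 at 494 and 565 CPM (0.873). For Cd163, Stab1 and Folr2 both reporter groups of the Tom positive library stood above the Tom negative value. For these receptors the step from the Tom negative library was larger than the step between reporter groups. Lyve1 went the other way, since its reporter-low level of 57.0 CPM was near the 52.4 CPM of Tom negative cells. Against only the Tom positive cells without a tdTomato UMI, no receptor was called higher and Cd163 was called lower. That group was small, since 91.4% of the 405 Tom positive macrophage-like cells held a tdTomato UMI. The share of all genes called was not computed for this split, so its calls are not read as a result.

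In the Cd209f, Cbr2 subset Lyve1 was at 825 CPM in 64 reporter-high and 327 CPM in 21 reporter-low cells, a ratio of 2.52 (1.96 to 3.29). The share of cells with Lyve1 was 64.1% and 61.9%, a smaller gap than that in level. Msr1 went the other way, at 237 and 366 CPM (0.648, 0.493 to 0.859), and was called lower. These were 1 of 6 receptors higher where 21.3% of genes were called higher, and 1 of 6 lower where 17.9% were called lower, close to the background in both directions. In the Vcam1, Ccl8 subset (91 reporter-high and 25 reporter-low cells) Lyve1 was at 24.0 and 86.0 CPM, but 1 reporter-low cell gave 22 of its 39 UMIs there, and without it the values were 24.0 and 40.7 CPM (ratio 0.589, 0.326 to 1.11). Cd163 was at 109 and 37.5 CPM in that subset. In the Ms4a4a, Ms4a7 subset Cd163 was at 5.13 and 33.9 CPM, and at 5.13 and 8.89 CPM (0.577, 0.211 to 1.65) without 1 reporter-low cell. The background shares called higher and lower were 14.5% and 13.3% in the former and 7.14% and 7.43% in the latter subset. Across 11 subsets none of the 6 receptors kept 1 direction with reporter level, Cd163 being called higher in 2 and lower in 3 of the 6 subsets that reached 10 CPM (3 and 0 of 4 without the richest cell of each), where 16.0% of gene and subset pairs were called higher and 13.8% lower.

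By reporter level in 5 steps, from no tdTomato UMI through under 500, 500 to 1000, 1000 to 2000 and at least 2000 CPM, the macrophage-scored Tom positive cells numbered 95, 270, 332, 485 and 229. Lyve1 ran at 26.5, 15.1, 7.83, 26.2 and 134 CPM along these steps. Folr2 ran at 93.2, 55.5, 36.9, 53.5 and 152 CPM and Cd163 at 71.8, 18.4, 11.8, 43.5 and 49.6 CPM. All 3 were lowest in the middle step, and Lyve1 and Folr2 were highest at the top step. Stab1 ran at 145, 133, 111, 177 and 237 CPM, Mrc1 at 2254, 1710, 1543, 1740 and 2375 CPM, and Msr1 stayed between 395 and 475 CPM. The share of cells from the Cd209f, Cbr2 subset had the same shape, at 8.42%, 4.81%, 2.71%, 5.57% and 12.2%, and the median depth was lowest in the outer steps, at 8658 and 12058 UMIs against 21201.5, 21006.5 and 18480 UMIs. The part of subset mix and depth in the shape was not tested.

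**Figure D4:**
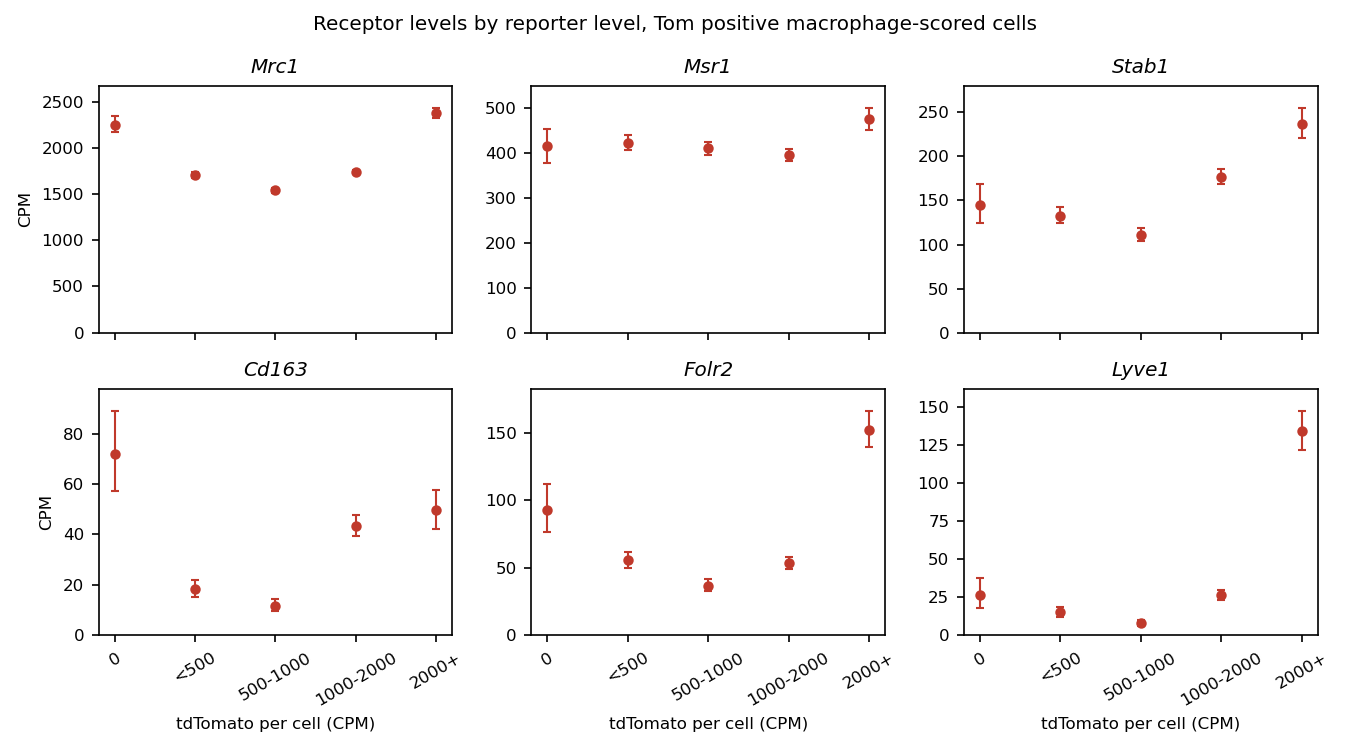
CPM of 6 receptors with exact 95% Poisson intervals in macrophage-scored Tom positive cells in 5 steps of tdTomato CPM. Lyve1, Folr2 and Cd163 are lowest from 500 to 1000 CPM of tdTomato, at 7.83, 36.9 and 11.8 CPM, and Msr1 is nearly flat.

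Related gene groups were counted in the macrophage-like library comparison, beside a median log2 difference of -0.02 over all measured genes, of which 2.27% were called higher and 3.41% lower. Of 19 measured other scavenger and uptake receptors 7 were called higher and 1 lower (median 0.27), the largest differences being those of Cd209f at 37.9 and 0.43 CPM, Cd209g at 13.4 and 0 CPM, Vsig4 at 49.2 and 2.80 CPM and Colec12, a collectin scavenger receptor, at 35.8 and 14.3 CPM. Of 20 genes of the resident macrophage programme 14 were higher and 1 lower (median 0.75), among them the ficolin gene Fcna at 120 and 44.1 CPM and Ccl8 at 447 and 125 CPM. Of 6 measured Kupffer cell genes 4 were higher, including Slc40a1, which encodes the iron exporter ferroportin, at 55.3 and 19.7 CPM. Without the cells holding Cd209f 1.71% of all genes were called higher, and these counts became 5 higher of 17, 8 higher of 18 and 2 higher of 4, with medians of 0.23 and 0.57 for the first 2. Some genes stand in more than 1 list, such as Cd209f, Vsig4 and Slc40a1. The lists were chosen with earlier results of these data known, and the resident programme holds leading genes of the Cd209f, Cbr2 subset, such as Cd209f and Ccl8. The counts thus describe these lists and are no independent support.

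Genes that act behind the receptors were counted in the same way, against the same 2.27% of all measured genes called higher and 3.41% lower. Their median log2 differences were 0.22 for haem uptake and use, -0.44 for folate, -0.42 for hyaluronan, 0.32 for the regulators and 0.23 for lysosome and endocytosis genes. Of 10 measured genes of haem uptake and use 2 were called higher and 1 lower, Slc40a1 and Hmox1 (the haem-degrading enzyme, 649 and 414 CPM) being the higher ones and Hp, which encodes haptoglobin, the lower one at 9.51 and 22.1 CPM. Of 6 folate genes 0 were higher and 1 lower, Tyms, the thymidylate synthase gene of dividing cells, at 34.4 and 61.7 CPM. Of 5 hyaluronan genes 0 were higher and 2 lower, Tnfaip6 at 42.4 and 67.8 CPM and Hmmr at 20.8 and 33.1 CPM. Of 16 regulators only Maf was called, at 628 and 359 CPM, and Nfkb1, at 328 and 468 CPM, fell short of the fold. Of 16 lysosome and endocytosis genes 0 were called, Ctsd at 1562 and 1085 CPM having the largest difference. By reporter level, where 3.63% of all measured genes were called higher and 2.73% lower, the calls were 3 higher and 1 lower among the other scavenger receptors and among the resident programme each, 0 among the Kupffer, haem, folate and lysosome genes, and 1 higher each among the hyaluronan genes (Hmmr) and the regulators (Csf1).

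Lymphatic endothelial-like cells (147 Tom positive and 33 Tom negative, with Prox1 at 753 and 516 CPM) had the highest Stab1 and Lyve1 of all classes. Lyve1 stood at 1583 CPM (1546 to 1621) in Tom positive against 918 CPM (825 to 1020) in Tom negative cells, and Stab1 at 847 (820 to 875) and 561 CPM (488 to 641). Both were called higher, 2 of 3 receptors measured, where 15.9% of genes were called higher. The Tom negative cells had a median of 1605 UMIs against 23422, and 21 of the 33 were doubted barcodes. In the 12 that were not, Lyve1 was at 882 CPM (786 to 986) and Stab1 at 572 CPM (495 to 656). On these 12 cells the Lyve1 gap was as large without the doubted cells, and the Stab1 gap fell just short of the call. Over 15 alternatives the log2 difference kept its sign, from 0.32 to 1.05 for Lyve1 and from 0.53 to 0.91 for Stab1. Both lowest values were below the call, so neither call held under every alternative. Mrc1 was next, at 185 and 174 CPM, in 64.6% and 48.5% of cells. Cd163 gave 0 UMIs in both libraries, allowing up to 0.698 CPM in Tom positive cells, and Msr1 was at 4.65 and 5.26 CPM. Relative to macrophage-like cells of the Tom positive library, Mrc1 in lymphatic cells was at 5.63% of the level, Msr1 at 0.91% and C1qa at 0.47%. The source of these RNAs in lymphatic cells was not tested.

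Lymphatic cells split into a main subset led by Fgl2 and Dtx1 and a cycling one. In the main subset (116 and 24 cells) Lyve1 was at 1660 and 1244 CPM and Stab1 at 911 and 556 CPM. The Lyve1 gap there was short of the call, and 17 of the 24 Tom negative cells were doubted. In the cycling subset of 26 Tom positive cells Lyve1 was at 1472 CPM, Stab1 at 727 CPM and Mrc1 at 215 CPM, the last above the 173 CPM of the main subset (158 to 188). The small number of Tom negative cells left no comparison there.

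Blood endothelial-like cells (509 and 237 cells, with Cdh5 at 1434 and 1256 CPM) carried Stab1 at a lower level and almost none of the others. In these cells tdTomato was at 208 CPM in Tom positive against 107 CPM in Tom negative, and 5.89% and 11.8% were reporter-high. The Tom positive fraction thus did not hold the larger share of reporter-high cells there, at the unequal depths given below. Stab1 stood at 134 CPM in both libraries, with 0.901 to 1.11 as the interval of the ratio, against 847 CPM in Tom positive lymphatic endothelial-like cells. Lyve1 was at 5.58 and 5.46 CPM. Mrc1, at 21.1 and 37.6 CPM, and Msr1, at 6.13 and 13.2 CPM, were the receptors called, 2 lower and 0 higher in Tom positive, where 8.34% of genes were called lower and 4.97% higher. Along with them C1qa was at 23.4 and 88.3 CPM, and median depth was 30849 and 2151 UMIs. Without doubted barcodes 508 and 119 cells remained, with Stab1 at 134 CPM in both and Mrc1 at 21.1 and 37.9 CPM.

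Among the blood endothelial subsets named here, the same ones were lower in Stab1 in both libraries, on few Tom negative cells. Stab1 was at 98.4 and 77.4 CPM in the subset led by Gja5 and Nebl (101 and 23 cells). In the one led by Chga and Fam155a (62 and 18 cells) it was at 93.4 and 80.7 CPM, and the intervals of these subsets overlap. Stab1 was higher in the subset led by Ackr1 and Glycam1 (196 and 21 cells), at 158 and 143 CPM. In the one led by Ramp3 and Ptn (33 and 23 cells) it was at 167 and 202 CPM. Gja5 is an arterial and Ackr1 a venular gene in mouse vessels. The Ramp3, Ptn subset also held Lyve1 at 48.1 and 25.6 CPM, but 1 Tom positive cell gave 44 of its 65 UMIs, and Mmrn1 was at 43.0 and 0 CPM there. In a mixed low-depth subset led by Cd74 and Arg1 (60 and 127 cells, 99 of the latter doubted) Mrc1 was at 331 and 170 CPM beside C1qa at 381 and 312 CPM. Lyve1 gave 106 Tom positive and 66 Tom negative UMIs there, 57 and 62 of them from 1 cell in each library.

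**Figure D5:**
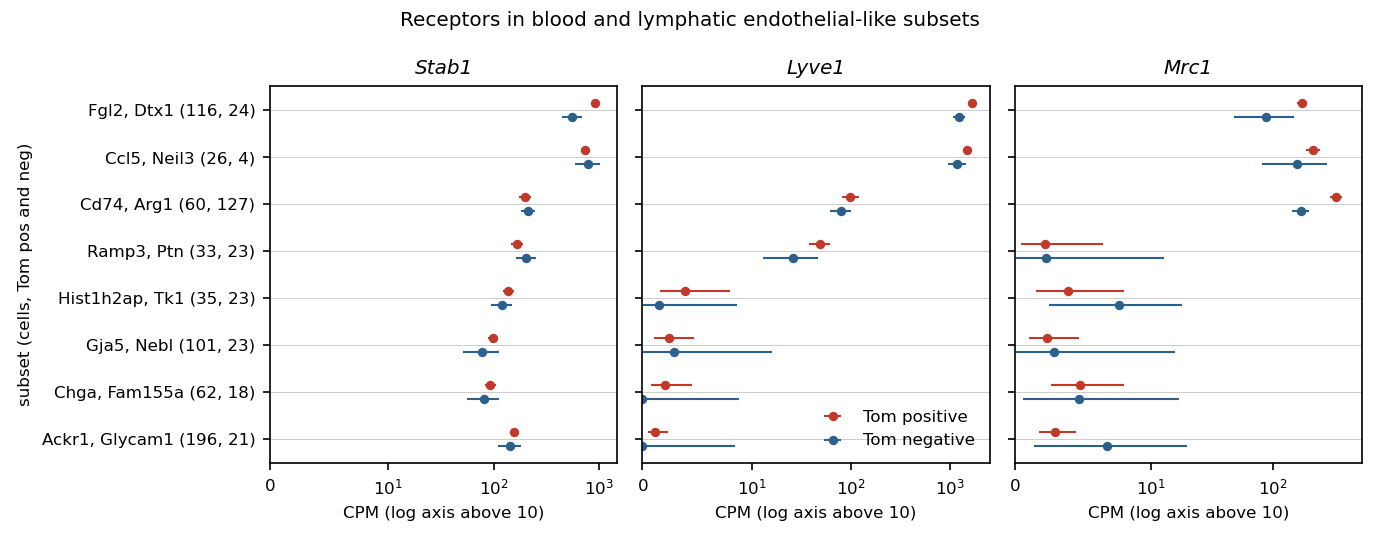
CPM of Stab1, Lyve1 and Mrc1 with exact 95% Poisson intervals in 8 endothelial subsets of both libraries, with cell numbers in the labels. Stab1 is present in all 8, and Lyve1 and Mrc1 stand out in the lymphatic subsets. Both are also found in the mixed low-depth subset, Lyve1 there mostly from 1 cell in each library.

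Timd4, Marco and Clec4f were too rare for comparisons. Timd4 was concentrated in 7 Tom negative cells of a subset led by Asgr2 and Ccl17, which gave 78 UMIs, 5 of the cells holding 5 or more. That subset stood at 17.8 CPM in Tom negative and 1.03 CPM in Tom positive cells. A further 9 UMIs came from 3 Tom negative cells of the Ccr7, Fscn1 subset, where Ccr7 was at 2541 CPM, a gene of migratory dendritic cells. In the Tom positive library Timd4 was found mainly in the Cd209f, Cbr2 subset, as 7 UMIs in 5 cells (7.26 CPM), 5 of the UMIs in the cells holding Cd209f. Timd4 thus sat in different subsets in the libraries, on counts of very few cells.

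Marco UMIs came mostly from single cells. Of 50 UMIs in Tom positive macrophage-like cells 31 were from 1 cell, and of 21 UMIs in the Tom negative Stac, Lepr subset 17 were from 1 cell. Marco levels of 6.09 and 0.54 CPM in macrophage-like cells became 2.33 and 0.54 CPM without that Tom positive cell. Clec4f gave 0 UMIs in 4302 Tom positive cells, which allows a share of cells with a detected UMI of up to 0.0697% and sets no limit on cells holding undetected RNA.

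Outside macrophages and endothelium, some receptors kept a low level. Stab1 in fibroblast-like cells stood at 15.2 and 17.9 CPM, 4.15% and 8.42% of the macrophage-like level, where Mrc1 was at 0.34% and 0.50% and Msr1 at 0.43% and 0.76%. Stab1 thus stood at a higher share of its macrophage-like level than Mrc1 and Msr1 there, and the source of this RNA was not tested. Pericyte or smooth muscle-like cells held Lyve1 at 28.0 and 13.5 CPM, in 14 of 47 and 38 of 159 cells, 27.7% and 25.7% of the macrophage-like level. Of the 33 Tom positive Lyve1 UMIs 12 came from 1 cell. In the pericyte or smooth muscle-like cells Prox1 was at 0 and 0.71 CPM, and the other macrophage receptors reached at most 3.00% of their macrophage-like level. In carcinoma-like cells Mrc1 was at 90.4 and 140 CPM, in 48.3% of 29 and 38.1% of 42 cells, beside C1qa at 20.6 and 111 CPM.

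Neutrophil-like cells (290 and 540, at medians of 3565.5 and 2746 UMIs) showed Lyve1 at 18.1 and 1.91 CPM, but 11 of its 19 Tom positive UMIs were from 1 cell. Lyve1 and Folr2 were called higher there and Msr1 lower, where 36.6% of genes were called higher and 5.80% lower. Against that background the 2 higher calls are not read as a result.

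Likeness of pattern was measured as Pearson's r of log2 of CPM plus 1 over 38 cluster-by-library sums of at least 50 cells, among 7539 genes, as a description without a test. The sums share 2 libraries and differ in depth. Cd163 was most like Folr2 (0.865), Ap1b1 (0.854) and Clec4a1 (0.826), and Folr2 most like Fcna (0.949), Clec4a1 (0.925) and C1qa (0.901). Mrc1 was most like C1qa (0.941), Lyz2 (0.941) and C1qc (0.938), and Msr1 was close to C3ar1 (0.963) and Kcnab2 (0.949). Stab1 was most like Elk3 (0.856), Fcho2 (0.810) and Dock4 (0.804), and Lyve1 most like Qk (0.736), Scn3a (0.735) and Mtmr12 (0.733). Mrc1 and Msr1 thus followed general macrophage genes closely, and the 2 receptors shared with lymphatic endothelium had no neighbour above 0.856.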

How the data were processed

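The deposited files hold UMI counts per gene and barcode, made by the authors with Cell Ranger 7.0.1 per the file headers, on mm10 per the submitters' processing notes. The sources used here do not state intron counting or barcode calling. There were 7568 barcodes and 128275546 UMIs in the Tom positive library, and 13604 barcodes and 164646314 UMIs in the Tom negative one.

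Cells needed 500 genes, 1000 UMIs and a mitochondrial share of 10% or less, and Scrublet, run per library, removed 63 and 97 doublets. Each cell was normalised to 10000 counts and log-transformed. The 2000 most variable genes, without the 9 receptors and tdTomato, gave 30 principal components, 15 neighbours and Leiden clusters at resolution 1 (Python 3.11.15, scanpy 1.11.5, anndata 0.12.19, igraph 0.11.9, numpy 2.4.6, scipy 1.17.1, pandas 2.3.3, matplotlib 3.10.9). A cluster was named from its markers where at least 3 reached 50 CPM and their mean log2 level lay at least 1 above the median cluster, unless another class had more markers among its 10 leading genes. Macrophage-scored cells were clustered again at resolution 1 and endothelial-like cells at resolution 0.5. That step and the split by Cd209f were added after the data were seen.

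UMIs were summed per library and population and divided by the total of the sum to CPM. Intervals at 95% are exact Poisson for CPM, exact binomial (Clopper-Pearson) for shares and exact conditional for ratios. Log2 differences are of CPM plus 1, and a count of 0 allows up to 3 counts as a floor. The calculation was tested on simulated counts. No test between groups was run, since each group was 1 library. Where thinning is named, each cell was reduced to 2000 UMIs and shallower cells were left out. Genes named are the 9 receptors, up to 4 members of each list by the size of the log2 difference, the 3 genes of most similar pattern per receptor (1 is not reported here), and leading genes of clusters; others were named after their values were seen. The members and lists were chosen with earlier results of these data known. The names Clec7a, Sepp1 and Cemip2 of the lists matched no feature. Alternatives covered cell filters, doublets, doubted barcodes, normalization, thinning, clustering, call thresholds and reporter thresholds.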

Additional observations from a re-analysis of the deposited data

Results flagged for a closer look

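Folr2, Cd163 and Lyve1 moved in opposite directions in different macrophage-scored subsets under the same comparison, each with a counting interval of the ratio on 1 side of equality. With 1 library per fraction none of these differences between subsets was tested, and the subsets were drawn after the data were seen.

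Between the libraries, Folr2 was at 88.5 CPM in Tom positive against 35.8 CPM in Tom negative cells of the subset led by Adamdec1 and Adgrl3, a log2 difference of 1.28, where 6.51% of genes were called higher. In the subset led by the interferon-induced genes Rsad2 and Cmpk2 it was at 5.48 and 29.6 CPM, a log2 difference of -2.24 from 4 and 34 UMIs, where 11.9% of genes were called lower. Without the richest cell of each subset the log2 differences were 0.97 and -1.73.

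By reporter level within the Tom positive library, Cd163 was at 26.7 CPM in reporter-high and 3.63 CPM in reporter-low cells of the subset led by Sema3c and Cxcl5, a log2 difference of 2.58, where 12.5% of genes were called higher. In the subset led by Stac and Lepr it gave 0 UMIs in 40 reporter-high cells and 11 UMIs in 26 reporter-low cells (14.8 CPM), a log2 difference of -3.98 that depends on the pseudocount of 1 CPM, where 10.2% of genes were called lower. Of the 11 UMIs 9 came from 1 cell, and without it both groups were under 10 CPM. Without the richest cell the difference in the Sema3c, Cxcl5 subset was 2.02.

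Lyve1 was at 74.4 CPM in reporter-high and 8.35 CPM in reporter-low cells of the low-depth subset led by Cacna1c and Bnc2, a log2 difference of 3.01 from 13 UMIs and 1 UMI, where 36.2% of genes were called higher. All 13 came from 1 cell. In the Vcam1, Ccl8 subset its log2 difference was -1.80, from 39 UMIs in each group, where 13.3% of genes were called lower. Without 1 reporter-low cell that gave 22 of them it was -0.74, with a ratio interval of 0.326 to 1.11. Both directions of Lyve1 thus rest on single cells.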

How the results depend on the processing

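No paired analysis was possible because each fraction was 1 library. Of 22 alternatives 3 were added after the data were seen, namely another resolution of the subsets, leaving out the richest cell, and leaving out cells holding Cd209f.

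Of 97 recomputed counts of receptors 87 stayed within 1.5 times the reported count. Of the 4 receptors called higher in Tom positive macrophage-like cells, 2 were called at a mitochondrial limit of 5% and 2 with clusters weighted equally, 1 at a fold of 2, and 1 without cells holding Cd209f. For the 1 receptor called higher in reporter-high cells, the count was 2 at a mitochondrial limit of 5%, 3 with no CPM minimum, 2 with reporter-high at 1000 CPM, 0 with reporter-low as cells without a tdTomato UMI (where 1 was called lower) and 0 without cells holding Cd209f. The counts of receptors highest in endothelial-like clusters stayed at 2 and those in macrophage-like clusters at 4 or 5.

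Of 696 recomputed log2 differences 472 stayed within the counting interval, 216 moved beyond it, and 8 of receptors called in the reported values changed sign. These were Lyve1 between libraries in the Cd209f, Cbr2 subset, reported at 0.76, with higher minimums of genes and UMIs (-0.28), doublets kept (-0.36), no doubted barcodes (-0.33), receptors and tdTomato among variable genes (-0.37) and Leiden resolution 2 (-0.31). Msr1 changed sign between libraries in endothelial-like cells at a mitochondrial limit of 20% (0.49), and by reporter level in the Cd209f, Cbr2 subset at a 5% mitochondrial limit (0.11) and with lower minimums (0.31). The cause was not tested. In macrophage-like cells the library difference kept its sign in all 16 alternatives for each of the 6 receptors, from 0.46 to 1.42 for Cd163, 0.59 to 0.93 for Stab1, 0.39 to 1.15 for Lyve1 and 0.28 to 0.83 for Folr2. By reporter level Lyve1 kept its sign in all 19, from 0.50 to 1.72, while Cd163 ran from -1.23 to 1.01. Under 6 alternatives the reporter comparison of the Cd209f, Cbr2 subset had under 10 cells in a group and gave no value.

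Depth limits Timd4, Marco and Clec4f, and intervals cover counting error only. With 1 library per fraction, differences between animals, captures and fractions cannot be told apart.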

Other observations

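The share of Tom positive macrophage-scored cells with at least 500 CPM of tdTomato differed between subsets. It was 89.3% (84.5 to 93.0) in the Cited1, Serpinb2 subset, in which Msr1 but little Cd163, Lyve1 or Folr2 was found, and 83.5% (77.2 to 88.7) in the Sema3c, Cxcl5 subset, where Msr1 was highest. It was 75.3% (64.7 to 84.0) in the Cd209f, Cbr2 subset and 57.1% (44.0 to 69.5) in the Plac8, S100a9 subset. A Cd209f UMI was also held by 19 Tom positive and 8 Tom negative kept cells outside the macrophage-scored clusters.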
